A study of Mus musculus with 12 samples.

Results

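Fatty acid and triglyceride metabolism was followed through 39 genes chosen by symbol from the 24062 genes of the count table: 11 of synthesis, 8 of uptake, binding and activation, 8 of storage and release, 7 of oxidation and 5 transcriptional regulators. Of the 39, 37 had enough counts to be tested, and the regulators Ppara (0 to 4 counts per library) and Ppargc1a (0 to 11 counts per library) did not. They were measured by mRNA sequencing of CD4+ T cells from C57BL/6 mice, separated on GFP into a CD4+GFP+ fraction of regulatory T cells (Treg) and a CD4+GFP- fraction of conventional T cells (Tconv). The 6 groups of 2 libraries were Treg and Tconv from the tumour of tumour-bearing (TB) mice (marked LG in the sample descriptions), from the spleen of TB mice and from the spleen of normal mice. TB mice had received 500000 TC-1 cells, a mouse lung epithelial tumour line, into a vein 3 weeks earlier, and no treatment was labelled for normal mice. The sources used here give neither the age of the mice nor the gene that drives GFP. They also do not say whether libraries of 1 group stem from different mice, so p-values measure only the spread between these libraries. No group came from the organ of the tumour in mice without tumour, so a difference between tumour and spleen cannot be told apart from one between organs.

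Cells make long-chain fatty acids from citrate through acetyl-CoA and malonyl-CoA, lengthen and desaturate them, and take others up from outside with the help of lipases and binding proteins. Acyl-CoA synthetases activate them, after which they are either joined to glycerol and kept as triglyceride in lipid droplets or carried into mitochondria by carnitine and oxidised. Treg in tissues, and in fat above all, are known for Pparg, the nuclear receptor that drives lipid storage and uptake, and Treg in general for their use of fatty acid oxidation.

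Total counts per library ran from 18624132 to 24111546. Levels below are counts scaled to library size by TMM, as CPM, given for library 1 and then library 2 or as mean ± SD (n = 2). Changes are log2 fold changes ± SE, and a change was called at an adjusted p below 0.05 over the 13509 genes tested. Foxp3, the factor that defines Treg, was at 989 to 1247 CPM in the 6 Treg libraries and 11.5 to 19.6 CPM in the 6 Tconv libraries. The T cell markers summed to 4786 to 5140 CPM in the tumour libraries and 4773 to 6406 CPM in spleen. Markers of several other cell types, though not of all, stood apart by site. The 12 macrophage markers summed to 189 to 472 CPM in the 4 tumour libraries against 2.14 to 10.2 CPM in the 8 spleen libraries. The 9 fibroblast markers summed to 221 to 537 against 1.76 to 3.77 CPM. The 11 markers of lung and tumour epithelium summed to 92.1 to 170 against 2.86 to 28.4 CPM. In spleen Treg nearly all of that sum was Epcam, at 24.3 to 27.6 CPM. Epcam was also at 26.7 and 23.2 CPM in tumour Treg, against 2.76 and 3.81 CPM in tumour Tconv. The 9 markers of alveolar macrophages, lung cells rich in lipid genes, summed to 119 to 343 against 1.17 to 38.6 CPM, and in spleen Treg nearly all of that sum was Atp6v0d2, with Ear1, Ear2 and Car4 at 0 in every spleen library. The 5 adipocyte markers summed to 0.175 to 0.363 CPM in tumour and 0.269 to 1.07 CPM in spleen, with Lep at 0 in all 12 libraries. Endothelium markers summed to 104 to 257 CPM in tumour and 197 to 329 CPM in spleen, but nearly all of that sum was Pecam1 in every library. Of the other endothelium markers, Cdh5 was at 0.790 to 6.35 CPM in tumour and 0.0418 to 0.815 CPM in spleen. Cldn5 was at 0.0874 to 0.499 CPM in tumour and 0 in every spleen library. B cell markers summed to 1.18 to 17.7 CPM in tumour and 1.86 to 26.0 CPM in spleen. In Treg nearly all of the B cell sum was Cd79b, at 16.2 to 25.3 CPM over both sites. Dendritic cell markers were at 10.9 to 39.4 against 1.53 to 6.22 CPM, and neutrophil markers at 2.48 to 13.0 against 0 to 3.85 CPM. Of the 2 tumour Tconv libraries, library 2 carried 2.50 times the macrophage sum, 2.88 times the alveolar macrophage sum and 2.43 times the fibroblast sum of library 1.

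Promoter windows of RefSeq (build GRCm38.p6, 250 bases before to 50 after the start site) were found for 30 of the 39 genes. Those of Plin2 and Elovl6 are shown because both genes were called higher in tumour Treg and in tumour Tconv and both windows hold the letters bound by 2 kinds of factor with a part in lipid genes. The first is AGGTCA, the half-site of nuclear receptors such as PPARs. The second is ACGTG, a form of the core of the hypoxia response element, whose other form GCGTG was not searched. AGGTCA and ACGTG were searched on both strands, so that they also appear as TGACCT and CACGT, and matches are in capitals. In Plin2 the match near the start site reads the same on both strands and counts as 2 overlapping matches.
Plin2, chr4:86670010-86670309, minus strand: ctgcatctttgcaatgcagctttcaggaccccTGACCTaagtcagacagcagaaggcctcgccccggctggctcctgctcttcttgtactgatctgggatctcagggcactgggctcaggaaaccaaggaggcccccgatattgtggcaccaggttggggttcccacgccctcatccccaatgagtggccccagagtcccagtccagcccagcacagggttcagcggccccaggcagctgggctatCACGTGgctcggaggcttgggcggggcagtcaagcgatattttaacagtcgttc
Elovl6, chr3:129532136-129532435, plus strand: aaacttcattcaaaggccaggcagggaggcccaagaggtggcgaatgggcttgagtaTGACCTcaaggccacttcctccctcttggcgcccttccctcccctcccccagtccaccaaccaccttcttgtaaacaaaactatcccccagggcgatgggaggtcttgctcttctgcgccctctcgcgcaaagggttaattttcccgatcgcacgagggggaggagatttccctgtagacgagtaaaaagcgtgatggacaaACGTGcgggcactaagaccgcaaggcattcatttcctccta

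Each motif was present in a window of 10 of the 30 genes, or 33.3%. Over all 32851 windows of the same length, 16.3% held AGGTCA and 19.6% held ACGTG. The first share counts genes with a match in any of their windows and the others count single windows, so they are not like measures. Besides Plin2 and Elovl6, both motifs were in the windows of Acacb, Acadvl and Acly. A match describes the letters of the window and shows no binding.

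In Treg, 27 of the 37 genes passed the test between tumour and TB spleen, 19 higher and 8 lower in tumour. Of all genes, 61.4% passed, 32.8% higher and 28.7% lower. In Tconv, 20 passed, 15 higher and 5 lower, where 49.1% of all genes did, 26.4% higher and 22.8% lower. Increases of at least 2-fold were called for 11 members in Treg and 13 in Tconv, beside 17.2% and 16.3% of all genes. A decrease of that size was called for 1 member (Ppargc1b) in Treg and 0 in Tconv, beside 6.58% and 3.15% of all genes. The increases in both cell types include Scd1, Fads2, Cd36 and Fabp4, which had enough counts to be tested only through the tumour libraries. For these genes an increase in tumour was the only large site change that could be called. Lpl and Mgll, low in spleen, are also among the increases. The median log2 fold change of the tested members was 0.24 in Treg and 0.10 in Tconv, beside 0.02 and 0.00 for all genes tested. By role, the median was 1.31 in Treg and 0.89 in Tconv for storage and release. It was 0.66 and 1.40 for uptake, binding and activation, 0.24 and 0.05 for synthesis, and 0.02 and -0.27 for oxidation. For the 3 tested regulators it was -0.21 and 0.24. The genes of uptake, binding and activation include Cd36, Lpl and Fabp4, which were near 0 in spleen, so their median leans on them. The median of storage and release falls in a gap with no member near it. Dgat1, Dgat2, Plin2 and Mgll lay above it and the other members of that role below, in both cell types. It thus leans in part on Mgll, which had 6 to 18 counts per TB spleen library. Scaling by library size alone shifted the all-gene median by -0.16 in Treg and -0.11 in Tconv, and the members' calls became 16 higher and 12 lower in Treg and 15 higher and 12 lower in Tconv.

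**Figure D1:**
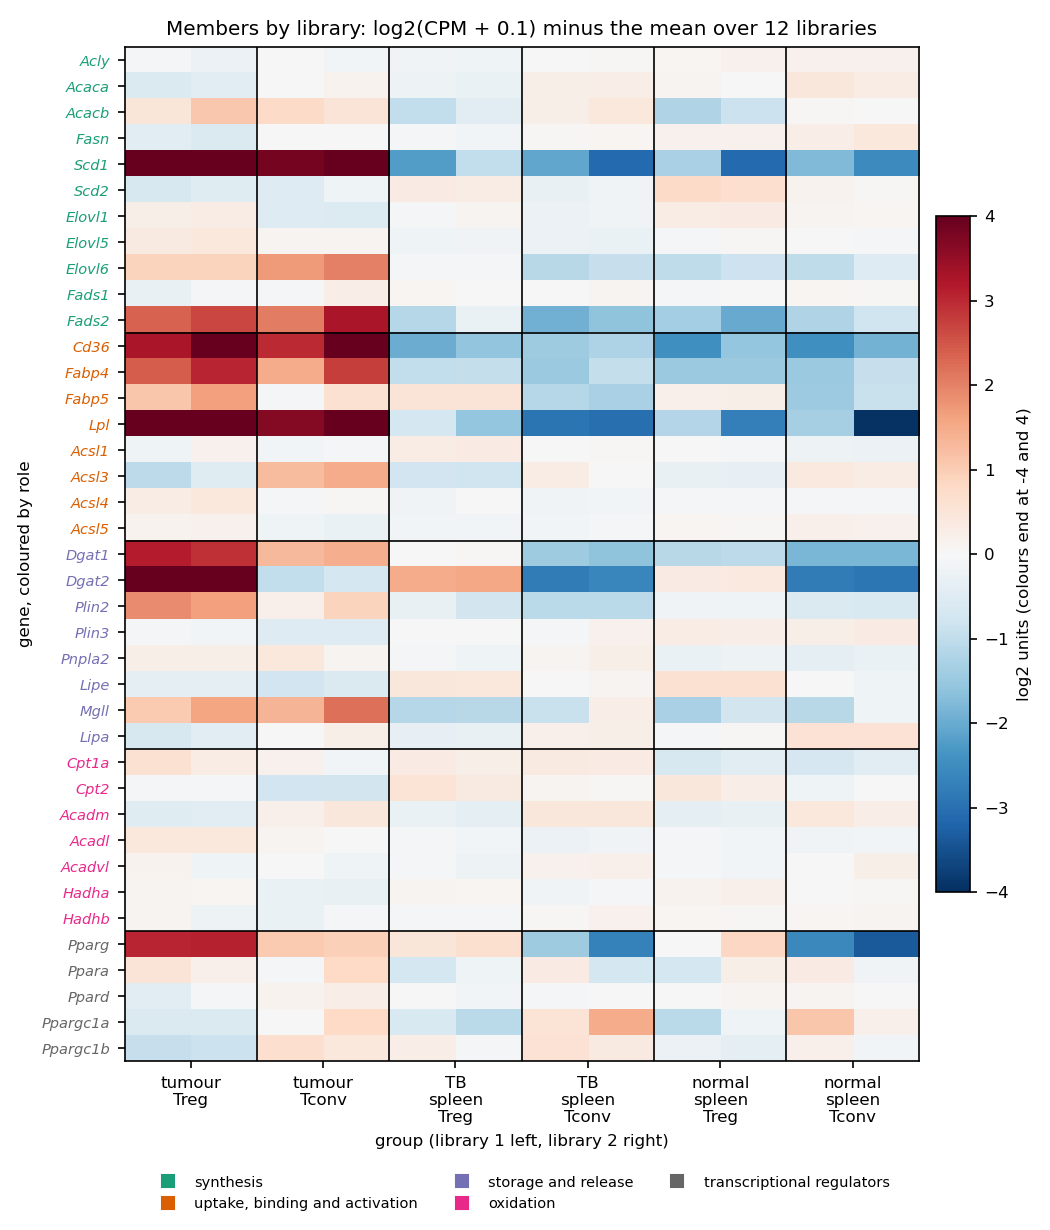
Level of each of the 39 genes (rows, coloured by role) in each of the 12 libraries (columns), as log2(CPM + 0.1) minus the gene's mean over the 12 libraries; TB stands for tumour-bearing, and colours end at 4 log2 units either way. Dgat1, Plin2, Scd1, Fads2, Cd36, Fabp4, Lpl and Mgll are higher in all 4 tumour libraries than in any spleen library, Dgat2 is highest in tumour Treg, and of the oxidation genes none changed by 2-fold between tumour and TB spleen.

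Among storage genes, Dgat1, Dgat2 and Plin2 were higher in tumour than in TB spleen in both cell types, and higher in Treg than in Tconv in tumour. Dgat1 and Dgat2 encode the enzymes, unrelated in sequence, that add the last acyl chain of triglyceride. Dgat1 (chr15:76502015-76511953, minus strand, GRCm38) was at 353 and 304 CPM in tumour Treg, 99.1 and 110 in tumour Tconv, 39.8 and 41.3 in TB spleen Treg, 14.9 and 13.2 in TB spleen Tconv, 18.4 and 19.5 in normal spleen Treg and 11.1 and 11.3 in normal spleen Tconv. No 2 groups overlapped, and the order of group means was tumour Treg, tumour Tconv, TB spleen Treg, normal spleen Treg, TB spleen Tconv and normal spleen Tconv, of which the last pair did not pass the test (adjusted p = 0.073). The rise from TB spleen to tumour was 3.02 ± 0.09 in Treg (8.10-fold, adjusted p = 2.7e-10) and 2.90 ± 0.10 in Tconv (7.48-fold, adjusted p = 6.4e-10). The 2 rises differed by 0.12 (95% interval -0.17 to 0.40, adjusted p = 0.57). Bulk libraries cannot tell more cells with a transcript apart from more of it per cell, here or below.

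Dgat2 (chr7:99153658-99182719, minus strand) was at 129 and 102 CPM in tumour Treg and 2.43 and 2.95 CPM in tumour Tconv. In TB spleen it was at 13.9 and 14.3 CPM in Treg and 0.625 and 0.718 CPM in Tconv, and in normal spleen at 6.11 and 6.5 CPM in Treg and 0.612 and 0.572 CPM in Tconv. Every Treg library was thus above every Tconv library, at each site and across sites. Treg exceeded Tconv by 5.42 ± 0.15 in tumour (42.7-fold, adjusted p = 7.2e-11), by 4.38 ± 0.20 in TB spleen (20.8-fold, adjusted p = 6.4e-09) and by 3.40 ± 0.23 in normal spleen (10.6-fold, adjusted p = 1.4e-07). The rise to tumour was 3.04 ± 0.12 in Treg (adjusted p = 1.9e-09) and 2.00 ± 0.26 in Tconv (adjusted p = 5.0e-05). The difference between these rises, 1.04 ± 0.32, passed the test (adjusted p = 0.032). It was lost in 5 of the 12 fits without 1 library, and its adjusted p reached 0.195 without TB spleen Tconv library 2.

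Plin2, which coats lipid droplets and accumulates with them, was at 86.4 and 74.0 CPM in tumour Treg, 27.2 and 43.6 in tumour Tconv, 19.1 and 14.1 in TB spleen Treg and 11.2 and 11.1 in TB spleen Tconv. Its rise in tumour was 2.27 ± 0.19 in Treg (adjusted p = 8.3e-07) and 1.68 ± 0.20 in Tconv (adjusted p = 2.5e-05). From library 1 to library 2 it differed 1.60-fold in tumour Tconv, where the macrophage sum differed 2.50-fold, and 0.857-fold in tumour Treg, where that sum differed 1.41-fold. The part of macrophages in these values was not tested. Plin2 is also abundant in macrophages. Dgat1 differed 1.11-fold and Dgat2 1.22-fold from library 1 to library 2 in tumour Tconv. In tumour Treg they differed 0.862-fold and 0.791-fold. Plin3, the droplet protein of most cells, was lower in tumour Tconv (24.8 ± 0.282 against 37.1 ± 4.31 CPM; -0.58 ± 0.09, adjusted p = 1.8e-04) and did not pass in Treg (33.3 ± 0.798 against 35.6 ± 0.451 CPM).

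**Figure D2:**
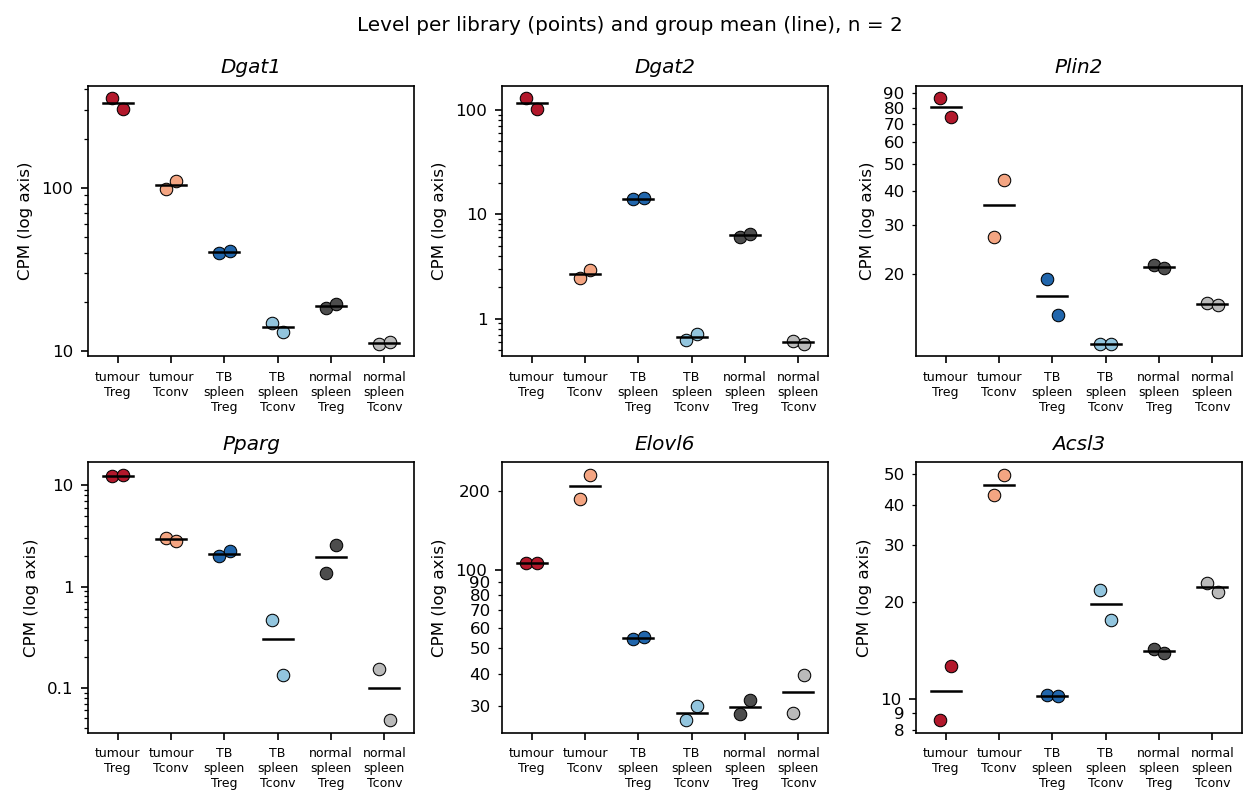
CPM on log axes for 6 genes, 1 point per library and a line at the mean of each group of 2; TB stands for tumour-bearing. Dgat1, Dgat2, Plin2 and Pparg are highest in tumour Treg (for Dgat1, 353 and 304 CPM), whereas Elovl6 and Acsl3 are highest in tumour Tconv (for Elovl6, 186 and 231 CPM).

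Of the genes that break triglyceride down, Pnpla2 (ATGL), the lipase of the first step, was at 106 ± 0.039 CPM in tumour Treg and 82.8 ± 4.74 CPM in TB spleen Treg. The difference of 0.36 ± 0.09 was called (adjusted p = 0.0044), though with library-size scaling it was 0.20 and did not pass (adjusted p = 0.056). Lipe (hormone-sensitive lipase) moved the other way. It was at 10.2 and 10.0 CPM in tumour Treg, 7.56 and 8.53 in tumour Tconv, 17.6 and 17.3 in TB spleen Treg and 13.2 and 13.9 in TB spleen Tconv. The fall was -0.79 ± 0.11 in Treg (adjusted p = 8.3e-05) and -0.75 ± 0.12 in Tconv (adjusted p = 2.7e-04), and tumour and spleen libraries did not overlap. Of the exonic bases of Lipe, 15.6% are shared with 4732471J01Rik on the opposite strand. How strand was treated in counting is not stated, so the level of Lipe is uncertain. Mgll, which completes the release, was low everywhere, at 1.48 to 3.40 CPM in tumour and 0.209 to 0.808 CPM in spleen. Its rise was called in Treg (2.85 ± 0.57, adjusted p = 9.9e-04) and Tconv (2.20 ± 0.51, adjusted p = 0.0036). Lipa, the acid lipase of lysosomes, was lower in Treg than in Tconv at every site, with values of -0.67 ± 0.09 in tumour, -0.54 ± 0.09 in TB spleen and -0.60 ± 0.09 in normal spleen (largest adjusted p = 3.0e-04).

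Among synthesis genes, the elongase Elovl6, which lengthens palmitate to stearate, had the largest called difference in site change between the cell types. It was at 106 and 107 CPM in tumour Treg, 186 and 231 in tumour Tconv, 54.4 and 55.4 in TB spleen Treg and 26.5 and 30.0 in TB spleen Tconv. Normal spleen Treg were at 28 and 31.7 CPM and normal spleen Tconv at 28.3 and 39.5 CPM. The rise to tumour was 0.95 ± 0.13 in Treg (adjusted p = 6.2e-05) and 2.88 ± 0.14 in Tconv (7.36-fold, adjusted p = 1.7e-08). Treg therefore stood above Tconv in TB spleen (0.95 ± 0.14) and below it in tumour (-0.97 ± 0.13), and the difference between the rises was -1.93 ± 0.19 (adjusted p = 3.5e-05).

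Of the enzymes that start the pathway, Acly, which makes cytosolic acetyl-CoA, was at 339 to 449 CPM in all 12 libraries and did not pass in either site comparison. Fasn, the fatty acid synthase, was lower in tumour Treg than in any other group, at 208 and 190 CPM against 273 and 261 CPM in TB spleen Treg (-0.42 ± 0.07, adjusted p = 2.3e-04). In Tconv it was at 280 and 278 CPM in tumour and 293 and 299 CPM in TB spleen, a difference of -0.09 (95% interval -0.24 to 0.06). The carboxylase Acaca was at 14.6 ± 1.27 CPM in tumour Treg and 17.5 ± 0.601 CPM in TB spleen Treg, where the call (-0.26 ± 0.10, adjusted p = 0.046) was lost in 8 of the 12 fits without 1 library (highest adjusted p 0.24, without tumour Treg library 1). Its mitochondrial relative Acacb, whose product restrains fatty acid entry into mitochondria, was higher in tumour Treg (5.19 ± 1.5 against 1.79 ± 0.515 CPM; 1.53 ± 0.28, adjusted p = 5.2e-04).

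The stearoyl-CoA desaturases, which make monounsaturated fatty acids, split. Scd2, the main form in these cells, was at 109 and 122 CPM in tumour Treg against 213 and 210 CPM in TB spleen Treg (-0.87 ± 0.10, adjusted p = 1.9e-05), while tumour Tconv were at 118 and 150 CPM against 137 and 155 CPM (-0.12 ± 0.11, adjusted p = 0.35). The difference between the 2 site changes, -0.75 ± 0.15, passed (adjusted p = 0.0035). Scd1 was at 17.9 and 17.8 CPM in tumour Treg and 12.2 and 19.5 CPM in tumour Tconv, and at 0 to 0.339 CPM in the 8 spleen libraries. In Treg its rise was 6.38 ± 0.52 (adjusted p = 7.9e-07). In Tconv 646 counts in tumour stood against 2 in TB spleen, a ratio of 337 (95% counting interval 92.9 to 2787). The polyunsaturated fatty acid genes Elovl5 and Fads2 were called higher in tumour in both cell types, with Elovl5 up by 0.55 ± 0.06 in Treg and 0.36 ± 0.06 in Tconv, and Fads1 in neither. Fads2 was at 2.31 to 5.44 CPM in tumour and 0.0445 to 0.381 CPM in spleen. In Tconv 161 counts of Fads2 in tumour stood against 3 in TB spleen, a ratio of 56.0 (95% counting interval 18.8 to 274). Scd1 and Fads2 had enough counts to be tested only through the tumour libraries, so only an increase of such size could be called. Elovl1, which makes very long chains, was lower in tumour Tconv (49.1 ± 0.141 against 62.3 ± 2.22 CPM; -0.34 ± 0.07, adjusted p = 0.0013) and higher in tumour Treg (85.8 ± 2.99 against 72.8 ± 4.99 CPM; 0.24 ± 0.07, adjusted p = 0.0076). The Treg call of Elovl1 was lost without TB spleen Treg library 1 (adjusted p = 0.099) and with library-size scaling (0.08, adjusted p = 0.34).

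**Figure D3:**
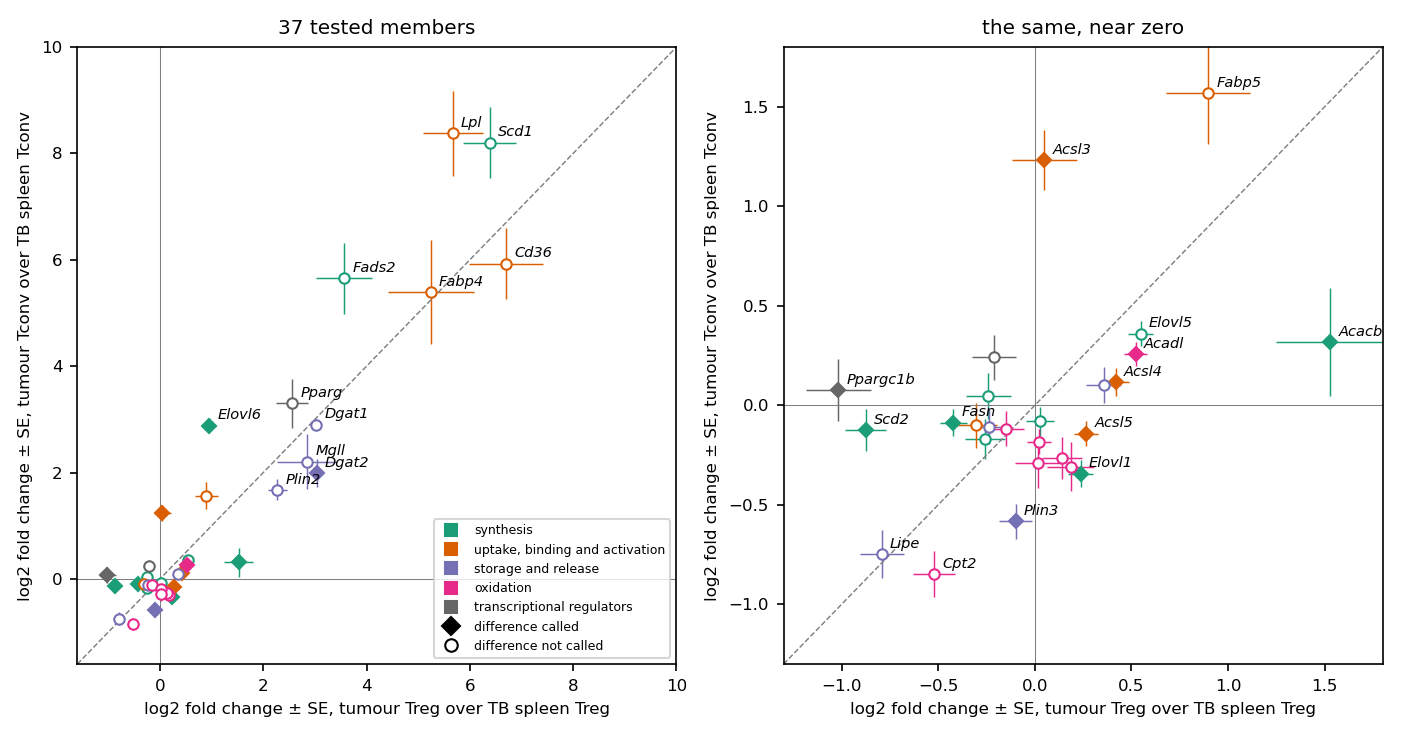
Log2 fold change from TB spleen to tumour in Treg (x axis) and Tconv (y axis) for the 37 tested genes, with SE bars, coloured by role; the right panel enlarges the region near 0, the dashed line marks equal change, and filled diamonds are the 12 genes whose changes differed by the interaction test. Dgat1 lies near the line (3.02 and 2.90), Dgat2 below it (3.04 and 2.00) and Elovl6 above it (0.95 and 2.88); fitted values above 5 rest on a few spleen counts.

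Of the uptake and binding genes, Cd36, Lpl and Fabp4 were near 0 in spleen and detected in all tumour libraries. Cd36, a fatty acid translocase and scavenger receptor, was at 5.25 and 8.91 CPM in tumour Treg and 4.29 and 11.0 CPM in tumour Tconv, and at 0 to 0.135 CPM in the 8 spleen libraries. In Treg 325 counts in tumour stood against 3 in TB spleen, a ratio of 113 (95% counting interval 38.5 to 553). Lpl, the lipase that frees fatty acids from lipoproteins, was at 25.2 and 40.8 CPM in tumour Treg and 19.4 and 48.2 CPM in tumour Tconv, and at 0 to 0.859 CPM in spleen. Fabp4, the fatty acid binding protein of adipocytes and macrophages, was at 0.677 to 2.19 CPM in tumour and 0 to 0.0477 CPM in spleen. Its ratio of tumour to TB spleen was 42.9 in Treg (82 against 2 counts, interval 11.5 to 360) and 53.2 in Tconv (51 against 1, interval 9.12 to 2141). These intervals cover counting error only. All 3 genes passed the test in both cell types, with adjusted p at most 8.6e-04. Cd36 and Fabp4 had enough counts to be tested only through the tumour libraries. For them an increase in tumour was the only large site change that could be called.

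None of Cd36, Lpl, Fabp4, Scd1 and Fads2 passed between tumour Treg and tumour Tconv. For Lpl that difference was -0.04 (95% interval -0.89 to 0.81) and for Cd36 -0.12 (95% interval -1.02 to 0.78). Between tumour Tconv libraries 1 and 2, levels differed 2.56-fold for Cd36, 2.49-fold for Lpl, 2.61-fold for Fabp4, 2.35-fold for Fads2, 1.83-fold for Mgll and 1.60-fold for Scd1, beside 2.50-fold for the macrophage sum and 2.43-fold for the fibroblast sum. Between tumour Treg libraries 1 and 2 they differed 1.70-fold for Cd36, 1.62-fold for Lpl, 1.57-fold for Fabp4, 1.25-fold for Fads2, 1.48-fold for Mgll and 0.997-fold for Scd1, beside 1.41-fold for the macrophage sum and 0.952-fold for the fibroblast sum. All 12 macrophage markers and all 8 tested fibroblast markers were called higher in tumour in both cell types, as were 9 of 10 tested epithelial markers and, of 8 tested alveolar macrophage markers, 7 in Treg and 8 in Tconv. The part of such cells in these values was not tested. The adipocyte markers stayed at or below 1.07 CPM in sum.

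**Figure D4:**
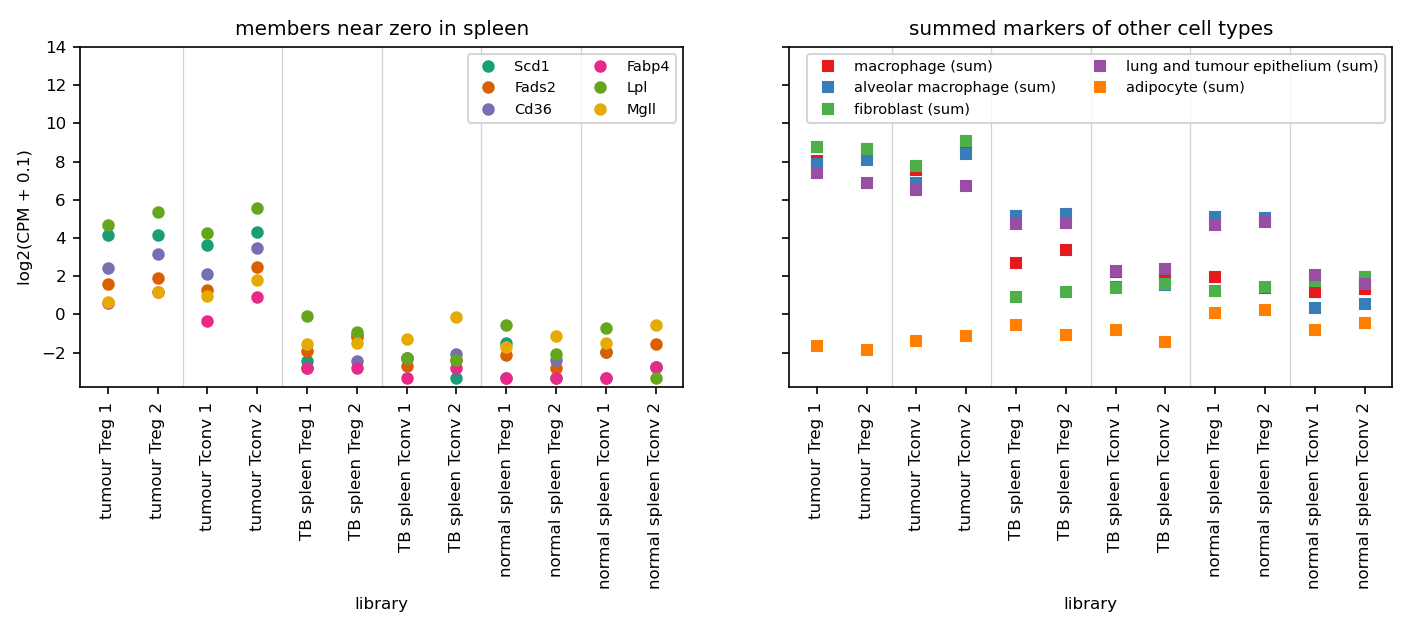
Log2(CPM + 0.1) in each library of 6 genes near 0 in spleen (left) and of the summed markers of 5 other cell types (right); TB stands for tumour-bearing. Both sets separate the 4 tumour libraries from the 8 spleen libraries, except the adipocyte sum (0.175 to 1.07 CPM), and tumour Tconv library 2 is above library 1 in both panels.

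Fabp5, the binding protein of epidermis and T cells, differed from Fabp4 in being detected at every site. It was at 20.6 and 29.5 CPM in tumour Treg, 9.08 and 14.6 in tumour Tconv, 13.4 and 13.5 in TB spleen Treg, 4.22 and 3.82 in TB spleen Tconv, 10.9 and 11.0 in normal spleen Treg and 3.36 and 5.01 in normal spleen Tconv. Treg were above Tconv by 1.07 ± 0.22 in tumour, 1.74 ± 0.25 in TB spleen and 1.38 ± 0.25 in normal spleen (largest adjusted p = 0.0013). The rise to tumour was 0.90 ± 0.22 in Treg (adjusted p = 0.0034) and 1.57 ± 0.25 in Tconv (adjusted p = 2.9e-04). From library 1 to library 2 Fabp5 differed 1.43-fold in tumour Treg, where the macrophage sum differed 1.41-fold. In tumour Tconv it differed 1.60-fold, where that sum differed 2.50-fold. The part of macrophages in the level of Fabp5 was not tested.

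Site changes differed between the cell types for 12 of the 37 members, 7 with the higher value in Treg and 5 with the higher value in Tconv. Of all genes 24.7% did, 11.7% and 13.1% in these directions. The acyl-CoA synthetases, which activate fatty acids for all later steps, did not move together. Acsl3, placed on the endoplasmic reticulum and nascent lipid droplets, was at 8.55 and 12.6 CPM in tumour Treg, 42.8 and 49.5 in tumour Tconv, 10.2 and 10.2 in TB spleen Treg and 21.8 and 17.6 in TB spleen Tconv. It rose in Tconv (1.23 ± 0.15, adjusted p = 3.5e-05), differed by 0.05 (95% interval -0.32 to 0.41) in Treg, and in tumour was 4.37-fold lower in Treg than in Tconv (-2.13 ± 0.16, adjusted p = 2.3e-07). The difference between the site changes was -1.18 ± 0.23 (adjusted p = 0.0029). Acsl4, which prefers arachidonic acid, rose in Treg (152 ± 9.77 against 114 ± 7.25 CPM; 0.42 ± 0.07, adjusted p = 2.8e-04) and did not pass in Tconv (0.12, adjusted p = 0.20). Acsl5 was at 222 ± 3.79 CPM in tumour Treg and 185 ± 0.676 CPM in TB spleen Treg (0.27 ± 0.06, adjusted p = 0.0023, and 0.11 with library-size scaling, adjusted p = 0.125). Acsl1 was at 20 ± 3.36 against 24.7 ± 0.488 CPM in Treg, a call (-0.31 ± 0.11, adjusted p = 0.029) that was lost without tumour Treg library 1 (-0.14, adjusted p = 0.26).

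Of the 7 oxidation genes, 2 passed between tumour and TB spleen in Treg (28.6%, beside 61.4% of all genes) and 3 in Tconv (42.9%, beside 49.1%), none by 2-fold. Cpt2, which re-forms acyl-CoA inside the mitochondrion, was lower in tumour in both. It was at 16.1 and 16.7 CPM in tumour Treg against 25.0 and 22.1 in TB spleen Treg (-0.52 ± 0.11, adjusted p = 0.0012). In Tconv it was at 10.1 and 10.2 CPM against 18.6 and 17.9 CPM (-0.85 ± 0.12, adjusted p = 7.95e-05). Acadl, the long-chain dehydrogenase, was higher in tumour Treg (116 and 117 against 81.6 and 80.4 CPM; 0.52 ± 0.06, adjusted p = 1.5e-05) and tumour Tconv (94.5 and 88.0 against 74.2 and 78.4 CPM; 0.26 ± 0.06, adjusted p = 0.0042). Hadha was at 150 ± 4.37 CPM in tumour Tconv and 171 ± 8.11 CPM in TB spleen Tconv (-0.18 ± 0.06, adjusted p = 0.027), a call lost without TB spleen Tconv library 2 (adjusted p = 0.15). Hadha and Hadhb, the 2 chains of the trifunctional protein, each differed by 0.02 in Treg, with 95% intervals of -0.11 to 0.15 and -0.25 to 0.29.

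Cpt1a, the carnitine transferase that controls entry of fatty acids into mitochondria, was higher in TB mice than in normal mice. It was at 257 and 205 CPM in tumour Treg, 188 and 155 in tumour Tconv, 210 and 196 in TB spleen Treg and 216 and 209 in TB spleen Tconv, against 109 and 123 in normal spleen Treg and 105 and 126 in normal spleen Tconv. All 8 libraries of TB mice were above all 4 of normal mice. TB spleen exceeded normal spleen by 0.81 ± 0.12 in Treg (adjusted p = 0.0014) and 0.88 ± 0.12 in Tconv (adjusted p = 7.7e-04). Tumour and TB spleen differed by 0.18 in Treg (95% interval -0.08 to 0.45) and -0.31 in Tconv (95% interval -0.58 to -0.04, adjusted p = 0.054, and -0.42 with library-size scaling, adjusted p = 0.0095). Acadm, the medium-chain dehydrogenase, separated the cell types instead: Treg were lower than Tconv by -0.79 ± 0.09 in tumour, -0.76 ± 0.09 in TB spleen and -0.67 ± 0.09 in normal spleen (largest adjusted p = 7.3e-05). Acadvl did not pass in Treg (0.14, adjusted p = 0.26) or Tconv (-0.27, adjusted p = 0.053). The Tconv value passed with library-size scaling (-0.38, adjusted p = 0.0081) and in 5 of the 12 fits without 1 library (-0.36, adjusted p = 0.024, without tumour Tconv library 1). The Treg value passed without tumour Treg library 2 (0.28, adjusted p = 0.035). Of its exonic bases, 42.9% are shared with Dvl2 on the opposite strand, and no source used here says whether strand was used in counting, so its level is uncertain.

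Pparg (chr6:115360951-115490399, plus strand) was at 12.3 and 12.8 CPM in tumour Treg, 3.05 and 2.81 in tumour Tconv, 2.00 and 2.24 in TB spleen Treg, 0.469 and 0.135 in TB spleen Tconv, 1.38 and 2.58 in normal spleen Treg and 0.153 and 0.0477 in normal spleen Tconv. Tumour Treg did not overlap any other group. The rise to tumour was 2.56 ± 0.32 in Treg (5.89-fold, adjusted p = 2.6e-05) and 3.30 ± 0.46 in Tconv (adjusted p = 9.2e-05), with 12 counts in all in TB spleen Tconv. Treg were above Tconv by 2.10 ± 0.31 in tumour, 2.84 ± 0.47 in TB spleen and 4.25 ± 0.58 in normal spleen (largest adjusted p = 3.6e-04). Pparg is also a defining factor of alveolar macrophages. From library 1 to library 2 it differed 0.923-fold in tumour Tconv and 1.04-fold in tumour Treg, where the alveolar macrophage sum differed 2.88-fold and 1.17-fold. The part of alveolar macrophages in the level of Pparg was not tested.

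Ppargc1b, a coactivator of mitochondrial genes, was at 5.51 and 5.72 CPM in tumour Treg against 12.7 and 10.1 in TB spleen Treg (-1.02 ± 0.17, adjusted p = 2.3e-04). Tumour Tconv were at 16.8 and 14.3 CPM against 15.8 and 13.6 CPM in TB spleen Tconv (0.08, 95% interval -0.27 to 0.42). The difference between the site changes was -1.09 ± 0.23 (adjusted p = 0.0049). Ppard, the PPAR found in most tissues, was at 22.4 to 36.8 CPM throughout and passed in neither site comparison.

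Between the cell types in tumour, 23 of 37 genes passed, 15 higher and 8 lower in Treg, where 53.9% of all genes did, 27.2% higher and 26.7% lower. The 5 that were at least 2-fold higher in Treg (10.5% of all genes) were Dgat1, Dgat2, Plin2, Pparg and Fabp5, and the 2 at least 2-fold lower (7.46% of all genes) were Acsl3 and Ppargc1b. For Dgat1 the difference was 1.65 ± 0.08 (3.14-fold, adjusted p = 8.9e-09) and for Plin2 1.17 ± 0.18 (2.25-fold, adjusted p = 1.1e-04). By role, storage and release had 5 higher and 1 lower, and oxidation 4 and 1. Uptake, binding and activation had 3 and 1, synthesis 2 and 3, and the regulators 1 and 2. The oxidation calls included Cpt2 (0.70 ± 0.12), Hadha (0.39 ± 0.06) and Acadl (0.35 ± 0.06). That of Cpt1a (0.43 ± 0.12, adjusted p = 0.010) was lost without tumour Treg library 1 (0.26, adjusted p = 0.126) and without tumour Tconv library 2 (0.28, adjusted p = 0.082).

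In spleen the cell types differed at fewer members. In TB spleen 18 of 37 passed (11 higher and 7 lower in Treg). Of all genes 40.3% passed there, 21% higher and 19.4% lower. In normal spleen 13 passed (8 higher and 5 lower), where 40.6% of all genes did, 21.8% higher and 18.7% lower. The genes at least 2-fold higher in Treg were Dgat1, Dgat2, Fabp5 and Pparg in TB spleen (10.6% of all genes) and Dgat2, Fabp5 and Pparg in normal spleen (11.1%), where Dgat1 was 0.75 ± 0.11 higher (1.68-fold, adjusted p = 1.2e-04). Acacb was lower in Treg at both sites, at 1.79 ± 0.515 against 3.72 ± 0.392 CPM in TB spleen (-1.05 ± 0.29, adjusted p = 0.011) and 1.39 ± 0.244 against 2.98 ± 0.0354 CPM in normal spleen (-1.10 ± 0.30, adjusted p = 0.011). Without TB spleen Treg library 1 the first had an adjusted p of 0.109, and without normal spleen Treg library 1 the second had one of 0.092.

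Between the spleens of TB and normal mice, 11 of 37 genes passed in Treg, 5 higher and 6 lower in TB, where 15.3% of all genes passed, 6.8% higher and 8.5% lower. In Tconv 7 passed, 2 higher and 5 lower, where 17.2% of all genes did, 9.74% higher and 7.49% lower. The calls that passed in every alternative fit were 4 in Treg (Cpt1a, Dgat1, Dgat2 and Elovl6, all higher) and 2 in Tconv (Cpt1a and Pnpla2, both higher). In Treg, Dgat1 was 1.10 ± 0.09 higher (2.14-fold, adjusted p = 2.4e-05), Dgat2 1.16 ± 0.13 (2.24-fold, adjusted p = 1.9e-04) and Elovl6 0.88 ± 0.14 (1.84-fold, adjusted p = 0.0018). The same comparison in Tconv gave 0.32 (95% interval 0.07 to 0.56), 0.19 (-0.58 to 0.96) and -0.26 (-0.58 to 0.05), none of which passed. The difference between the cell types passed for Elovl6 (1.14 ± 0.20, adjusted p = 0.018) and Dgat1 (0.78 ± 0.15, adjusted p = 0.029), where 0.851% of all genes passed, and not for Dgat2 (0.97 ± 0.39, adjusted p = 0.50). Either call was lost in 7 of the 12 fits without 1 library, with the adjusted p reaching 0.108 for Elovl6 without normal spleen Treg library 1 and 0.172 for Dgat1 without TB spleen Tconv library 2. Pnpla2 was at 97.3 and 106 CPM in TB spleen Tconv against 70.1 and 74.6 in normal spleen Tconv (0.49 ± 0.09, adjusted p = 0.0038). The decreases were small, from -0.22 to -0.41, and none of those 11 calls passed in every alternative fit. They were of Acly, Fasn, Scd2, Elovl1, Plin3 and Lipa in Treg and Fasn, Elovl1, Elovl5, Acsl5 and Lipa in Tconv. With library-size scaling the 6 in Treg were all lost, leaving 5 higher and 0 lower, and the calls in Tconv became 4 higher and 2 lower. The comparisons of tumour with TB spleen and of TB spleen with normal spleen share the TB spleen libraries.

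A wider set of 124 genes of the same 5 roles, without the 39, had 95 tested genes. Of these, 42 were higher and 23 lower in tumour Treg than in TB spleen Treg (68.4%, beside 61.4% of all genes), and 23 were higher and 28 lower in Tconv (53.7%, beside 49.1%). The oxidation genes of this set had 14 higher and 7 lower of 31 in Treg, and 4 higher and 11 lower of 31 in Tconv. The difference in site change between the cell types passed for 15 of the 31, of which 10 had the higher value in Treg. For the synthesis genes of the set, 12 were higher and 5 lower of 22 in Treg, and 6 higher and 9 lower in Tconv. Site changes differed for 8 of the 22, all with the higher value in Treg. Of all genes 24.7% differed in site change, 11.7% with the higher value in Treg and 13.1% with the lower. The set's median log2 fold change was 0.25 in Treg and -0.06 in Tconv.

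Among genes of the wider set whose mean log2 CPM was 3 or more, those with the largest increases in tumour Treg were Hilpda, Cebpb and Agpat4. Hilpda, a lipid droplet protein induced by hypoxia that inhibits the lipase encoded by Pnpla2, was at 130 ± 18.3 CPM against 13.1 ± 1.38 CPM in TB spleen Treg (3.30 ± 0.12, 9.86-fold, adjusted p = 9.6e-10). In Tconv it rose by 0.39 ± 0.12 (adjusted p = 0.016), and the difference of 2.91 ± 0.16 passed (adjusted p = 7.1e-07). Cebpb, a transcription factor of adipocyte and myeloid differentiation, rose by 2.72 ± 0.19 in Treg (148 ± 21.3 against 22.5 ± 2.07 CPM) and 2.57 ± 0.21 in Tconv (59.2 ± 1.13 against 10.1 ± 4.57 CPM). Agpat4, an acyltransferase of glycerolipid synthesis, rose by 2.02 ± 0.12 in Treg. In Tconv, within that limit, the other large increases were of Acot2, a mitochondrial acyl-CoA thioesterase (1.90 ± 0.13), and Insig1, which retains the SREBP complex in the endoplasmic reticulum (1.13 ± 0.09).

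Within the same limit of level, the largest decreases were of Cebpa, Pprc1 and Acad10 in Treg and of Oxsm, Cebpa and Mlycd in Tconv. Cebpa, the partner of Pparg in adipocytes, fell by 1.72 in Treg (6.18 ± 0.217 against 20.4 ± 0.0598 CPM) and by 1.14 in Tconv (3.67 ± 0.398 against 8.11 ± 1.16 CPM). Pprc1, a relative of Ppargc1b, fell by 1.21 in Treg (27.1 ± 4.59 against 62.8 ± 1.19 CPM). Oxsm, of mitochondrial fatty acid synthesis, fell by 1.23 in Tconv (8.42 ± 0.736 against 19.7 ± 1.53 CPM), and Mlycd, which removes malonyl-CoA, by 0.83 (14.1 ± 2.87 against 24.9 ± 0.0341 CPM).

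Levels of different genes can be compared only per length. Per kilobase of exon, the mean over the 12 libraries was highest for Elovl5 (108 CPM per kb), Acly (75.1), Acadl (43.7), Acsl5 (41.4) and Acadvl (33.4). Scd2 was at 32.6 CPM per kb against 1.16 for Scd1, Dgat1 at 28.2 against 7.58 for Dgat2, and Fabp5 at 3.25 against 0.115 for Fabp4. Cpt1a was at 22.9 and Pparg at 1.13 CPM per kb, and Ppargc1a (0.0228) and Ppara (0.0183) were lowest.

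Over the 6 group means of log2 CPM, the genes with the pattern most like Dgat1 were A930004D18Rik, Ell2, Ablim3, Kif24 and Odc1 (Pearson r 0.995 to 0.999 across groups). Those most like Dgat2 were Muc20, Lat2, Slmo2, Gstt1 and Whsc1 (r 0.996 to 0.998). Between Dgat1 and Dgat2 themselves r was 0.813. These are descriptions over 6 points that share libraries, taken from 13509 genes.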

How the data were processed

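Messenger RNA of 12 libraries of sorted CD4+ T cells was measured. Per the labels' protocols, negative selection for CD4+ cells preceded the GFP sort, RNA came from a micro column kit, libraries from a stranded mRNA kit and reads from a NextSeq500. The submitters' processing notes name STAR, featureCounts and mm10, without versions. The authors deposited raw counts per gene, whole numbers with no scaling. No source used here states how strand was treated in counting. Exonic bases overlap an opposite-strand gene in 8 members and a same-strand gene in 2. Groups and replicate numbers came from the titles. For normal mice those numbers differ from the ones in the descriptions.

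The members, lists, named genes and tests were chosen with earlier results of these data known, and none of the counts over lists is independent support for those results. Named genes were all 39 members, Foxp3, and per site comparison the called genes of the wider lists ranking in the top 3 for increase or for decrease at a mean log2 CPM of at least 3. Further named were the 5 genes most like Dgat1 and the 5 most like Dgat2, and markers. Hilpda in Tconv was added after its values were seen.

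Counts were fitted with edgeR 4.0.16 (R 4.3.3): filterByExpr by group, TMM scaling (factors 0.942 to 1.07) and 1 quasi-likelihood model of 6 group means over 12 libraries. The 6 residual degrees of freedom are pooled over groups of 2. Tests were two-sided with Benjamini-Hochberg adjustment over 13509 genes, in 7 comparisons and 2 interactions. The SE is the log2 fold change divided by the square root of F. Where the second group of a called comparison had 1 to 3 counts, a ratio of levels with an exact 95% counting interval is given. Variance between replicates was 3.45 to 16.0 times that of counting (chi-square per gene), so no library was a copy of another. In simulated counts of 13039 genes, 200 were changed, in tumour Treg only. The Treg site comparison recovered 75% of changes of 1 log2 unit and 43% of 0.5, with 4 false among 122 calls. The site interaction recovered 68% and 15%, with 4 false among 87. In the data 61.4% of all genes passed in the Treg site comparison. These rates therefore describe the simulated setting and cannot be read as rates for the data.

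Gene positions and exon lengths are from GENCODE annotation of GRCm38, in which all 39 were found by symbol. Promoter windows are from RefSeq. Of the 124 wider genes all were matched, 6 by synonym, and 82 of 83 markers, 2 by synonym. The alternatives comprised size factors of DESeq2 1.42.0 and its own test, library-size scaling, no filter on low counts, limma-voom (limma 3.58.1), fits of only the groups compared, a replicate block and fits without each library in turn. Plots used matplotlib 3.10.9 (Python 3.11.15), with 0.1 CPM added before logs.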

Additional observations from a re-analysis of the deposited data

Results flagged for a closer look

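The change from TB spleen to tumour differed between Treg and Tconv, by the interaction test of the edgeR fit, for 12 of 37 members, where 24.7% of all genes differed. Values are the change in Treg minus that in Tconv, in log2 units. It was positive for Acacb (1.21), Dgat2 (1.04), Elovl1 (0.58), Plin3 (0.48), Acsl5 (0.41), Acsl4 (0.30) and Acadl (0.26). It was negative for Elovl6 (-1.93), Acsl3 (-1.18), Ppargc1b (-1.09), Scd2 (-0.75) and Fasn (-0.33). Those of Acsl3, Acsl5, Elovl1, Elovl6, Ppargc1b and Scd2 passed in every alternative fit. Of the others, the adjusted p reached 0.163 for Acacb without TB spleen Treg library 1, 0.195 for Dgat2 without TB spleen Tconv library 2, 0.101 for Fasn without TB spleen Treg library 1, 0.059 for Plin3 without TB spleen Tconv library 2, 0.185 for Acsl4 without tumour Tconv library 1 and 0.166 for Acadl without tumour Tconv library 2.

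The change from normal to TB spleen differed between the cell types for Elovl6 (1.14) and Dgat1 (0.78). Both values are higher in Treg, and neither passed in every fit that left out 1 library.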

How the results depend on the processing

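Over 6301 values of single members under the alternatives, 5951 stayed on their side of the threshold with no called value changing sign, 227 lost a call, 123 gained one and 0 reversed a called direction. Counts of called members moved by over 1.5 times as follows. For TB against normal spleen Treg, 11 became 5 with library-size scaling, and 4 to 13 when 1 library was left out. For TB against normal spleen Tconv, 7 became 2 to 9 when 1 library was left out. For the site interaction, 12 became 7 in a fit of only the groups compared and 6 to 17 when 1 library was left out. For the TB interaction, 2 became 1 with limma-voom and 0 to 2 when 1 library was left out. The lowest values included those without TB spleen Treg library 1, TB spleen Tconv library 1, TB spleen Tconv library 2 and TB spleen Treg library 1, in that order. The cause was not tested.

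When 1 library was left out, the counts were 23 to 31 for tumour against TB spleen Treg (27 with all), 19 to 24 for Tconv (20), 21 to 24 between the cell types in tumour (23), 12 to 21 in TB spleen (18) and 10 to 15 in normal spleen (13). A group left with 1 library is assumed to vary like the others. The calls that passed in every alternative were 21 of 27, 19 of 20, 20 of 23, 10 of 18 and 9 of 13 in these 5 comparisons. With library-size scaling, 39.9% of all calls in the Treg site comparison and 41.5% in Tconv were higher in tumour, beside 53.3% and 53.7%. Between the spleens the higher share was 66.5% in Treg and 78.5% in Tconv, beside 44.4% and 56.5%, and in the site interaction 38.5% beside 47.2%, where the members split 5 higher and 6 lower.

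The labels do not say that equal replicate numbers mark shared mice, and correlations of deviations between same-numbered libraries were -0.03 to 0.15 over the 7 comparisons. With the replicate number as a block, the counts of called members were 26, 22, 23, 20, 13, 10 and 9 in the 7 comparisons, in the order tumour Treg, tumour Tconv, cell types in tumour, TB spleen and normal spleen, and TB against normal spleen in Treg and Tconv, and 11 and 2 in the interactions. Acadvl in the Tconv site comparison passed with the block (-0.27, adjusted p = 0.045).

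Depth limits Scd1, Fads2, Cd36, Fabp4, Lpl and Pparg in spleen, where each had at least 1 library of 0 to 3 counts, and Mgll, with 5 to 18 counts per spleen library.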
